A study of Rattus norvegicus with 25 samples.

Results

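The dentate gyrus (DG) of stressed rats that later showed little anxiety-like behavior was compared with that of equally stressed rats that later showed much of it. The comparison used 6 of the 25 libraries of the study, chosen by their labelled region and group. They were the 3 stress-low libraries (animals 22, 33 and 34) and the 3 stress-high libraries (animals 7, 19 and 20) of the DG. All 6 animals were adult male Sprague-Dawley rats of wild-type genotype. Both groups shared a single exposure of 3 h of immobilization with predator scent (fox urine), blood sampling during it and housing apart from controls afterwards, and tissue was taken on day 9. The groups were set by a composite score of anxiety-like behavior, 0 to 2 in stress-low and 13 to 15 in stress-high animals, so they are the 2 ends of 1 stressed population and not animals given different treatments. Controls, with scores of 0 to 6, stayed in the home cage without the stress and served as a reference. Punches of the left dorsal DG were pooled for each animal and poly-A RNA was sequenced as 1 library, so each value below is 1 animal, and p-values measure the spread between animals.

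The DG is the entry stage of the hippocampal circuit. Its granule cells receive cortical input and drive CA3 through the mossy fibers, mossy cells and GABA interneurons of the hilus feed back onto them, and new granule cells are added in adult life. These cells carry glucocorticoid and mineralocorticoid receptors, hormone-dependent transcription factors through which corticosterone acts after stress, and granule cell output also depends on co-released peptides such as dynorphin.

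Total expected counts, the reads that the quantification assigned to genes, were 11656439 to 15547038 in stress-low libraries (median 14714365) and 16201792 to 19477932 in stress-high libraries (median 19337634). Every stress-high library was deeper than every stress-low library. Every stress-high animal also had a lower number than every stress-low animal, and whether the numbers follow cohorts is not stated in the sources used here. Of the 6 DG control libraries, animal 35 stood apart with a first principal component score of 55.95, against -13.669 to 2.281 for the other 11 DG libraries, and was left out. The 10 most abundant genes held 13.678% to 16.76% of TPM, an abundance scaled by gene length and library, in stress-low and 12.605% to 17.545% in stress-high libraries.

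Markers of the labelled region were present in all 6 libraries. Prox1, the transcription factor that sets granule cell identity, was at 64.1 to 86.2 TPM in stress-low and 63.5 to 93.3 TPM in stress-high animals, and C1ql2, a synaptic organizer of the mossy fibers, was at 294 to 336 and 301 to 377 TPM. Dsp, a desmosomal protein of granule cells, varied more, with 0.82, 7.34 and 3.82 TPM in stress-low animals 22, 33 and 34 and 7.99, 6.51 and 6.54 TPM in stress-high animals 7, 19 and 20. The GABA synthesis gene Gad1 (126 to 139.9 against 116 to 138 TPM) and the astrocyte gene Gfap (354 to 464 against 372 to 389.9 TPM) overlapped between the groups. The defining choroid plexus markers were at or near 0, with Ttr at most at 0.24 TPM, Kl at most at 0.08 TPM and Clic6 at 0 in all 6 libraries, and the list with ependymal genes summed to 32.73 to 42.36 and 34.19 to 42.63 TPM. Markers of CA1 to CA3 pyramidal cells summed to 1515 to 1665 TPM in stress-low and 1563 to 1733 TPM in stress-high animals, with Wfs1, a protein of CA1 cells, at 15.7 to 17.4 and 13.9 to 24.8 TPM.

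Over 15 lists of cell type markers, the summed TPM overlapped between the groups for all but 2. The adult neurogenesis list summed to 120.4 to 131.7 TPM in stress-low and 113.5 to 115.0 TPM in stress-high animals, and controls spanned 104.3 to 131.7 TPM. Of its 11 tested genes, 9 were lower in stress-high animals, with a median log2 difference of -0.22. None reached an unadjusted p of 0.05 (against 3.12% of all genes). This median was -0.12 on counts thinned to 1 depth and 0.019 with the animal number as a covariate, so its sign depended on that choice. That covariate was a term for animal numbers above 20, which held every stress-low animal and no stress-high animal. Its value therefore came from the controls alone, animals 2, 14 and 17 against 28 and 32. Dcx, a microtubule protein of immature neurons, was at 7.24, 9.97 and 8.77 TPM in stress-low and 7.33, 6.78 and 7.82 TPM in stress-high animals, and these ranges overlapped. The list of oligodendrocyte progenitor markers summed to 167.4 to 176.3 TPM in stress-low and 177.6 to 183.0 TPM in stress-high animals, and controls spanned 172.5 to 199.2 TPM. Of its 10 tested genes, only 4 were higher in stress-high animals, with a median log2 difference of -0.01. Pdgfra, the receptor that defines these cells, was at 12.7 to 17.2 and 13.7 to 15.0 TPM. Myelin genes were lower in stress-high animals for 14 of 18 tested, with a median log2 difference of -0.071 and summed values of 2233 to 2391 and 2005 to 2420 TPM. Over 18 alternatives this median ran from -0.35 to 0.017. Only 1 had the other sign, the 0.017 with library size as a covariate. Pericyte and smooth muscle markers were higher for 8 of 9 tested genes (median log2 difference 0.16), with summed values of 49.55 to 55.46 and 55.15 to 63.48 TPM, but with the animal number as a covariate 1 of 9 was above 0 and the median was -0.32. In bulk tissue, fewer cells of a type and less RNA per cell cannot be told apart, and the part of these shifts in the results on single genes was not tested.

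Stress-high animals were compared with stress-low animals in a quasi-likelihood model of the counts (edgeR), with 14080 genes tested. No gene passed an adjusted p of 0.05 (0% of genes tested). The smallest adjusted p was 0.797, for Cartpt, so none of the differences below is a called change, and each is given as values. At an unadjusted p under 0.05 there were 440 genes (3.12% of those tested), with the higher value in stress-high animals for 243 (1.73%) and in stress-low animals for 197 (1.40%). Those 440 genes had a median absolute log2 difference of 0.337, against 0.0816 over all genes tested, and 49 of them differed by 1 or more. Over all genes, 7034 had a log2 difference above 0 (50.0%). All 3 stress-high TPM values lay above all 3 stress-low values for 588 genes (4.18%) and below them for 635 genes (4.51%), and 328 of the 440 genes were among these. The 440 genes were fewer than the share of 0.05 that the threshold alone would pass if no gene differed. The 1223 genes without overlap (8.69%) were likewise no more than 3 against 3 values without a group difference would give. Neither mark by itself sets a gene apart from chance. With DESeq2 in place of edgeR, 3 genes passed an adjusted p of 0.05, Cartpt and Tbx19 among them, and 397 had an unadjusted p under 0.05.

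**Figure D1:**
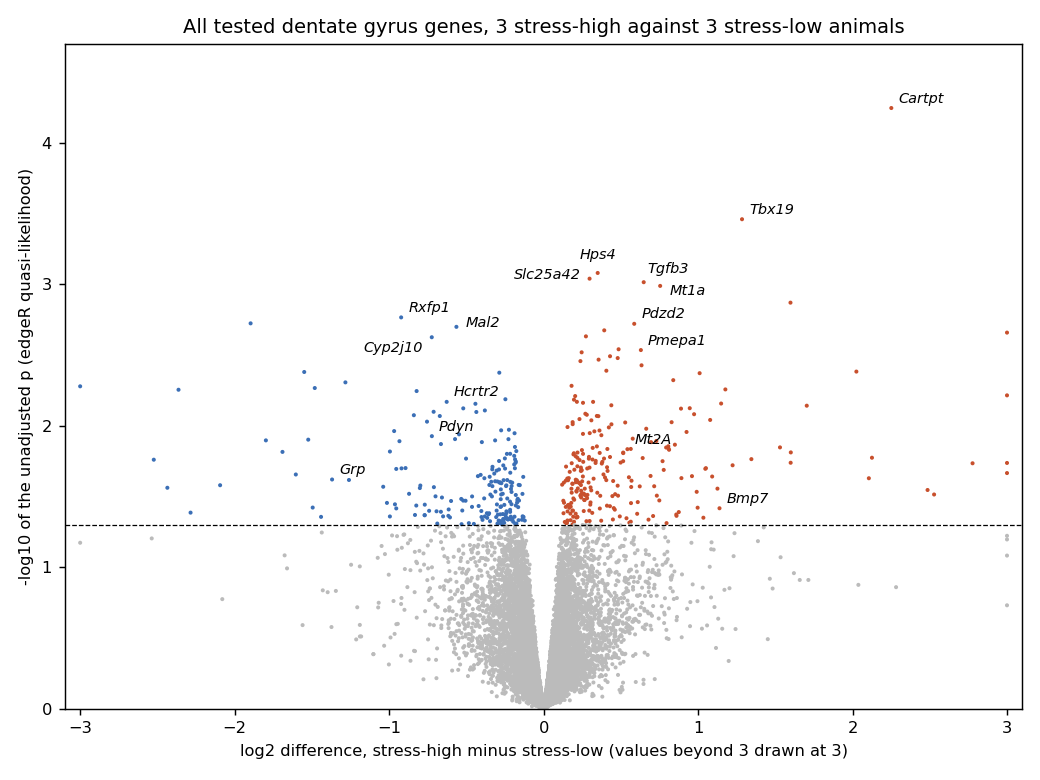
Log2 difference of stress-high over stress-low animals (x axis) and -log10 of the unadjusted edgeR p (y axis) of 14080 DG genes, 1 point per gene, with the dashed line at the threshold of 0.05, genes under the line in gray, genes higher in stress-high animals in red and lower ones in blue. Cartpt stands highest at a log2 difference of 2.25, and the colored points number 243 to the right and 197 to the left.

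The controls were used to ask which stressed group lay nearer to unstressed animals. Of the 440 genes, the control mean was nearer to the stress-high mean for 291 (66.14%) and to the stress-low mean for 149, and it lay between both means for 356 (80.91%). Over all genes tested, the control mean was nearer to stress-high for 8511 (60.45%) and lay between for 4568 (32.44%). Genes with a low unadjusted p are those with the most distant group means, so a control mean between them follows in part from the choice. Cartpt went the other way, with control values of 2.68 to 8.37 TPM that reached down into the stress-low range and stayed under every stress-high value.

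The stress hormone genes were taken first, since corticosterone acts on the DG through them. The receptors themselves overlapped between the groups, except in 1 entry of the glucocorticoid receptor. The name Nr3c1, of the glucocorticoid receptor, is held by 2 identifiers and was left out of the list counts. The entry with overlap was at 29.3, 32.4 and 27.6 TPM in stress-low and 28.4, 26.5 and 28.6 TPM in stress-high animals. The other entry was at 22.91, 27.7 and 23.17 TPM in stress-low and 20.24, 17.78 and 22.45 TPM in stress-high animals. Every stress-high value of that entry lay below every stress-low value, with a log2 difference of -0.28 (SE 0.13). Its controls spanned 20.53 to 30.02 TPM. Nr3c2, the mineralocorticoid receptor, was at 64.5 to 79.7 and 65.1 to 74.3 TPM. Of 25 tested genes in the list of receptors and glucocorticoid-induced genes, 19 were higher in stress-high animals (against 50.0% of all genes), with a median log2 difference of 0.093, and leaving out any 1 of the 6 animals gave 16 to 19 genes. With the animal number as a covariate 13 of 25 were above 0 and the median was 0.0011. An unadjusted p under 0.05 was found for 3 of the 25, all higher in stress-high animals (against 1.73% of all genes), namely Mt1a, Mt2A and Fkbp5. Without 1 animal this number was 1 to 3, with 1 left without stress-high animal 7 or stress-low animal 34, and Mt1a held in all 6 such fits, Mt2A in 3 and Fkbp5 in 2. The summed level of the list was 1190.0 to 1218 TPM in stress-low, 1287 to 1403 TPM in stress-high and 1222 to 1322 TPM in control animals.

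Mt1a and Mt2A encode metallothioneins, small cysteine-rich proteins that bind zinc and copper and are induced by metals and by glucocorticoids. Mt3 is the brain form of the same family. The 250 bases upstream of their start sites are shown because the core of the metal response element, the site of the zinc-sensing factor MTF-1, is repeated there. Capitals mark each match of TGCACNC or TGCGCNC on either strand, where N is any base. The sequences are from RefSeq on the GRCr8 assembly, which is not the Rn5 assembly used for the counts, all 3 genes lie on the minus strand, and Mt1a was matched to the RefSeq gene Mt1 through its synonym. The windows are chr19:10832976-10833225 for Mt1a, chr19:10838709-10838958 for Mt2A and chr19:10856081-10856330 for Mt3.
Mt1a: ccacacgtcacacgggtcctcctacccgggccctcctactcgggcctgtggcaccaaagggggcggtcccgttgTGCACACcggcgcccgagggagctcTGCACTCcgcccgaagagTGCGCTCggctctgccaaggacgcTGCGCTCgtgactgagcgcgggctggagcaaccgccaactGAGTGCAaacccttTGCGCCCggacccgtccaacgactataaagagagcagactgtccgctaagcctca
Mt2A: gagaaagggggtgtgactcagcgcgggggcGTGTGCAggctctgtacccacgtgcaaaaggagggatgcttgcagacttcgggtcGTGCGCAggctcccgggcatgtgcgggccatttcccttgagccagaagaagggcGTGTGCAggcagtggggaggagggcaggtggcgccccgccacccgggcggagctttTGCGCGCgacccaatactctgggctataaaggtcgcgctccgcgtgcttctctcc
Mt3: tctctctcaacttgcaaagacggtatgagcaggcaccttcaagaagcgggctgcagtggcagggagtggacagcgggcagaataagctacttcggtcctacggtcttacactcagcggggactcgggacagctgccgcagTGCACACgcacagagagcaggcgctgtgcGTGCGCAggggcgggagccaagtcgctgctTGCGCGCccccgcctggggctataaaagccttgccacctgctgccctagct
Mt1a had 6 matches, Mt2A 4 and Mt3 3. Of 33469 RefSeq upstream windows of the same length, 20.57% held at least 1 match, 1.17% held 3 or more and 0.27% held 4 or more. The full glucocorticoid response element, an inverted repeat of AGAACA with 3 bases between the arms, was in 0.01% of the windows and in none of the 22 genes of the glucocorticoid list that had a window, which says only that these letters are not in these windows.

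Mt1a was at 41.0, 33.7 and 38.6 TPM in stress-low animals 22, 33 and 34 and at 65.6, 70.4 and 51.8 TPM in stress-high animals 7, 19 and 20. Every stress-high value lay above every stress-low value, with 45.5 to 59.7 TPM in controls, and the log2 difference was 0.75 (SE 0.18, unadjusted p = 0.00102), from 38 to 122 counts. Mt2A was at 137, 112 and 94.7 TPM and 183, 178 and 134 TPM in the same order, for a log2 difference of 0.54 (SE 0.19, unadjusted p = 0.0146). The highest stress-low animal of Mt2A, 22, overlapped the lowest stress-high animal, 20. Mt3 was far more abundant, at 2094 ± 143 TPM in stress-low and 2198 ± 91.5 TPM in stress-high animals (mean ± SD, n = 3 each). Its groups overlapped and its log2 difference was 0.10 (SE 0.08). Metallothionein genes are similar in sequence and the quantification by RSEM shares out reads between such genes, which leaves the split between Mt1a and Mt2A uncertain.

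Fkbp5, a co-chaperone that lowers the hormone affinity of the glucocorticoid receptor, was at 39.7, 43.2 and 41.7 TPM in stress-low and 61.1, 46.8 and 44.2 TPM in stress-high animals. The groups did not overlap, but stress-high animal 7 stood above all others, and the log2 difference of 0.30 (SE 0.13) dropped to 0.12 without it. Among 35 tested antioxidant and metallothionein genes, 23 were higher in stress-high animals and 4 had an unadjusted p under 0.05 (against 3.12% of all genes), all higher. Besides the metallothioneins these were Sod3, the extracellular superoxide dismutase, with 12.6 to 17.7 TPM in stress-low and 17.8 to 20.7 TPM in stress-high animals (log2 difference 0.42), and SRXN1, which reactivates oxidized peroxiredoxins, with 7.14 to 9.00 and 10.3 to 11.3 TPM (log2 difference 0.45). The intracellular dismutases Sod1 and Sod2 overlapped between the groups, with log2 differences of 0.12 and -0.08.

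Of 21 tested clock genes 14 were higher in stress-high animals, and 2 had an unadjusted p under 0.05 (against 3.12% of all genes). Nr1d1, the nuclear receptor that represses Arntl in the molecular clock, was at 55.9, 57.0 and 56.7 TPM in stress-low and 67.6, 61.6 and 69.2 TPM in stress-high animals. The stress-low values were close together and under every other value, controls included (61.6 to 77.2 TPM), and the log2 difference was 0.23 (SE 0.08, unadjusted p = 0.00895). Dbp, a clock output factor, was at 97.4 to 115 and 113 to 139 TPM and overlapped. The clock E-box (CACGTG) was in the upstream window of 4 of 17 clock genes with a window, Nr1d1 among them, and in 5.59% of all windows. Among 32 immediate early genes, which neurons switch on with activity, 20 were higher in stress-high animals and 2 had an unadjusted p under 0.05 (against 3.12%). Fosl2, a partner of Jun, was at 16.7, 11.2 and 13.3 TPM in stress-low and 19.7, 21.2 and 19.9 TPM in stress-high animals (log2 difference 0.58, SE 0.20), and Klf4, a zinc-finger factor, was at 0.95 to 1.3 and 1.5 to 2.49 TPM (log2 difference 0.81, SE 0.29). Fos itself, at 3.41 to 4.78 and 4.46 to 5.63 TPM, overlapped. Heat shock proteins and endoplasmic reticulum chaperones were close to even, with 41 of 78 and 16 of 27 tested genes above 0 and median log2 differences of 0.0033 and 0.0084.

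**Figure D2:**
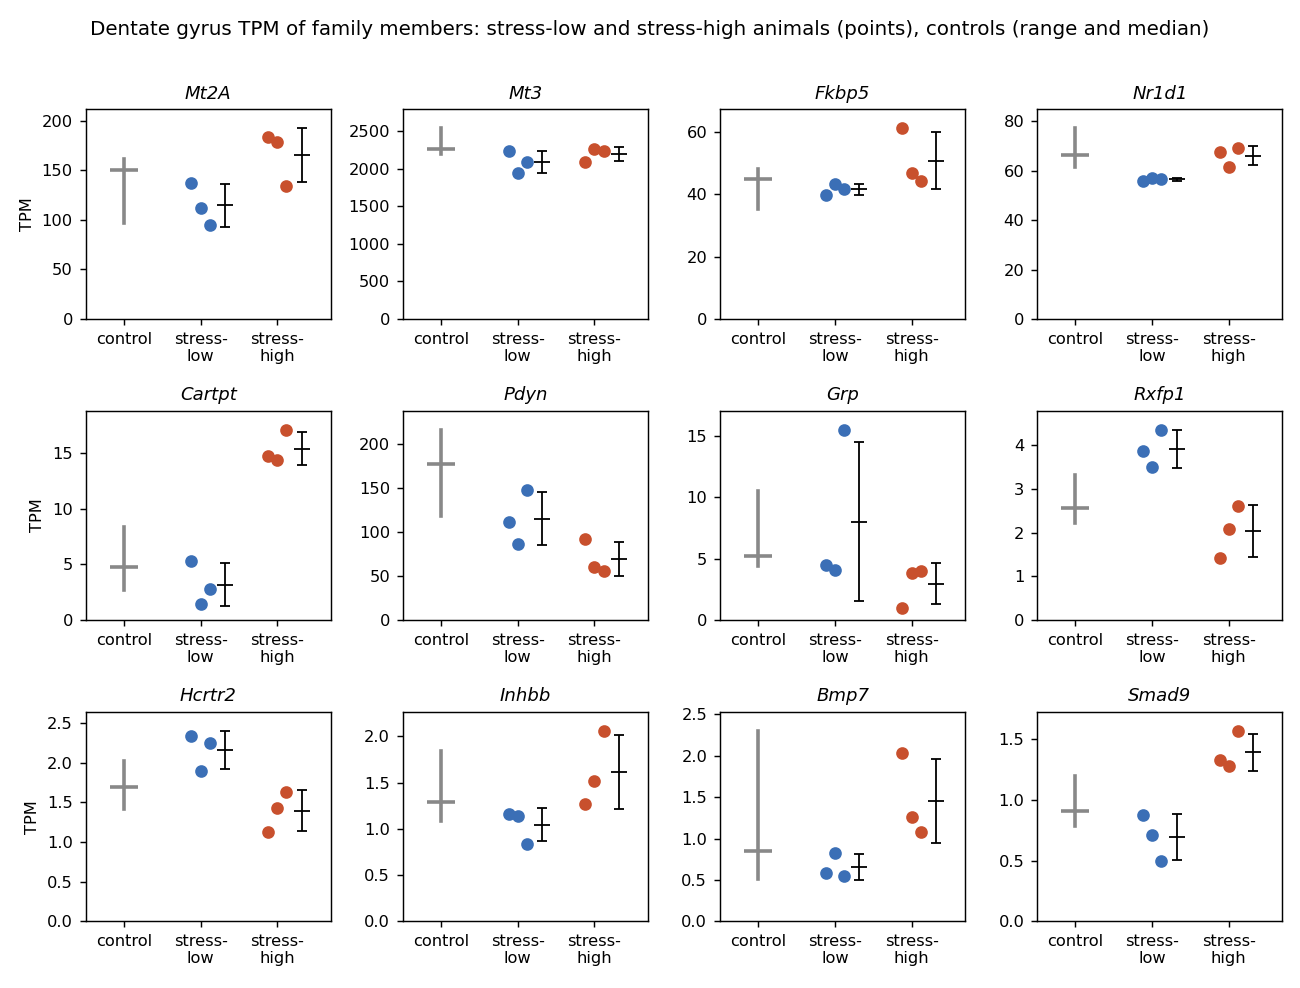
TPM (y axis, from 0) of 12 genes of the hormone, clock, peptide and TGF-beta families in DG controls (gray, range and median of 5 animals), stress-low animals (blue) and stress-high animals (red), with the mean and SD of each stress group in black. Cartpt has every stress-high point at or above 14.4 TPM and every other point at 8.37 TPM or less, while Mt2A, Mt3 and Pdyn overlap between the stress groups.

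The gene with the smallest p of all encodes a neuropeptide. Cartpt encodes the precursor of the CART peptides, which in the hippocampus are known from mossy cells and granule cells. It was at 5.28, 1.47 and 2.80 TPM in stress-low animals 22, 33 and 34 and at 14.7, 14.4 and 17.1 TPM in stress-high animals 7, 19 and 20. All 3 stress-high animals lay above all 3 stress-low animals and all controls, and the log2 difference was 2.25 (SE 0.39, unadjusted p = 5.66e-05, adjusted p = 0.797 in edgeR), a 4.76-fold difference. Its counts ranged from 8 to 122, and leaving out 1 animal gave log2 differences of 1.89 to 2.89. Of the other mossy cell markers, Calb2, a calcium-binding protein, was at 9.99 to 12.0 TPM in stress-low and 10.1 to 11.2 TPM in stress-high animals, and Gal, the galanin precursor, was at 2.04 to 5.59 and 1.62 to 4.08 TPM, both with overlap. The list of mossy cell markers, Cartpt included, summed to 359.0 to 421.5 TPM and 375.9 to 441.5 TPM. The 250 bases upstream of Cartpt, chr2:32991236-32991485 on the minus strand of GRCr8 (RefSeq), are shown because they hold the full cAMP response element TGACGTCA, in capitals, 142 bases before the start.
Cartpt: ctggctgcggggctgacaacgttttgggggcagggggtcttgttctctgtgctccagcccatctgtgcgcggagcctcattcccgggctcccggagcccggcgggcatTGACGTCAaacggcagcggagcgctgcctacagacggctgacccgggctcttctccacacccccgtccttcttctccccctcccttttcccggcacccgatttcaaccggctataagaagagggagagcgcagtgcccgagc
This element was in 1.59% of all upstream windows, and its use in these animals was not measured.

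Pdyn, the dynorphin precursor of granule cells, was lower on average in stress-high animals. It was at 112, 86.7 and 147 TPM in stress-low and 91.8, 59.9 and 56.2 TPM in stress-high animals, and stress-high animal 7 lay above stress-low animal 33. The log2 difference was -0.72 (SE 0.25, unadjusted p = 0.0118), and controls, at 119 to 216 TPM, lay above all but 1 of the 6 stressed animals. Grp, the gastrin-releasing peptide precursor, was at 4.46, 4.07 and 15.5 TPM and 1.02, 3.86 and 4.0 TPM, and stress-low animal 34 was far above the rest. Its log2 difference of -1.37 (SE 0.54) moved to -0.51 without that animal. Of 24 tested peptide precursors, 12 were higher in stress-high animals, so the family as a whole was even. Cartpt, Pdyn and Grp were the 3 with an unadjusted p under 0.05 (against 3.12% of all genes). Pcsk1, a convertase that cuts peptide precursors, was at 9.67 to 13.5 TPM in stress-low and 8.62 to 9.65 TPM in stress-high animals with a log2 difference of -0.32 (unadjusted p = 0.0728), and 6 of 8 tested processing enzymes were below 0.

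On the receiving side, 33 peptide and hormone receptors were tested and 3 had an unadjusted p under 0.05 (against 3.12% of all genes). Rxfp1, the relaxin receptor, was at 3.87, 3.49 and 4.35 TPM in stress-low and 1.43, 2.08 and 2.6 TPM in stress-high animals. Every stress-high value was below every stress-low value, for a log2 difference of -0.92 (SE 0.24, unadjusted p = 0.00171), and controls spanned 2.22 to 3.32 TPM. Hcrtr2, the orexin receptor of the arousal system, was at 2.34, 1.89 and 2.25 and 1.12, 1.43 and 1.63 TPM, again with no overlap and with a log2 difference of -0.63 (SE 0.20). Trhr2, a receptor for thyrotropin-releasing hormone, was higher in stress-high animals but nearly absent, at 0.06 to 0.20 and 0.50 to 0.78 TPM with 1 to 21 counts. As a list the receptors were even, with 18 of 33 above 0.

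The TGF-beta superfamily signals through receptor kinases and Smad factors, and its activin and BMP branches act on adult neurogenesis and on granule cell synapses. Of 34 tested ligands, receptors, inhibitors and Smads 18 were higher in stress-high animals, and 4 had an unadjusted p under 0.05, all higher (against 1.73% of all genes higher and 1.40% lower). Without 1 animal the number was 2 to 6, with 2 left without stress-low animal 34 and 6 without stress-low animal 33. The ligand Tgfb3 was at 3.39, 4.63 and 4.96 TPM in stress-low and 7.58, 6.56 and 5.99 TPM in stress-high animals (log2 difference 0.65, SE 0.15, unadjusted p = 0.000964). Inhbb, the beta B subunit of activin and inhibin, was at 1.16, 1.14 and 0.84 and 1.27, 1.52 and 2.06 TPM (log2 difference 0.62, SE 0.25), and Bmp7 at 0.59, 0.83 and 0.55 and 2.03, 1.26 and 1.08 TPM (log2 difference 1.14, SE 0.50). For these ligand genes the groups did not overlap, and in Bmp7 a single control reached 2.30 TPM, above every stressed animal. The fourth, Smad9, a transcription factor downstream of BMP receptors, was at 0.88, 0.71 and 0.50 TPM in stress-low and 1.33, 1.28 and 1.57 TPM in stress-high animals (log2 difference 0.97, SE 0.32). Levels of Bmp7, Smad9 and Inhbb were low, with counts of at most 73. The other activin subunit, Inhba, overlapped between the groups (log2 difference -0.19, SE 0.25). Pmepa1, a membrane protein that is induced by TGF-beta and restrains Smad signaling, was not in the list and came up by its rank among all genes. It was at 26.4, 36.8 and 29.0 TPM in stress-low and 46.4, 56.4 and 37.9 TPM in stress-high animals, without overlap and with a log2 difference of 0.63 (SE 0.17, unadjusted p = 0.00291).

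Counts in other developmental pathways stand against 3.12% of all genes, and their difference from the TGF-beta list was not tested. Wnt signaling had 0 of 46 tested genes with an unadjusted p under 0.05 in edgeR, and neurotrophins and growth factors had 0 of 35. For the growth factor Bdnf the groups overlapped, at 30.4 to 35.5 TPM in stress-low and 26.2 to 34.6 TPM in stress-high animals. Notch signaling had 1 of 23, Maml2, a coactivator of Notch, at 16.8 to 21.6 and 22.1 to 25.6 TPM (log2 difference 0.35, SE 0.12). Epha4, a receptor for ephrins on dendritic spines, was the 1 of 21 Eph receptors and ephrins, with 211 to 233 TPM in stress-low and 182 to 211 TPM in stress-high animals (log2 difference -0.18). Sema3c, a secreted guidance cue, had a log2 difference of -0.24 (SE 0.11) with overlapping groups.

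Carriers of nutrients and ions were a large group. Of 70 tested glucose, lactate and ion cotransporters, 6 had an unadjusted p under 0.05 and a higher value in stress-high animals, and 2 a lower one (against 1.73% and 1.40% of all genes). Slc2a1, the glucose transporter of the blood-brain barrier and of astrocytes, was at 33.6, 37.8 and 34.2 TPM in stress-low and 46.0, 40.9 and 43.4 TPM in stress-high animals, without overlap (log2 difference 0.31, SE 0.10, unadjusted p = 0.00913). Endothelial markers, Slc2a1 among them, summed to 143.3 to 173.4 TPM in stress-low and 165.2 to 171.0 TPM in stress-high animals, and Cldn5, a tight-junction protein of the same vessels, was at 25.5 to 34.8 and 29.1 to 30.5 TPM. Slc12a4, a potassium-chloride cotransporter of cell volume control, was at 5.08 to 5.82 TPM in stress-low and 6.63 to 7.01 TPM in stress-high animals. The 2 lower carriers were Slc16a4, of the monocarboxylate transporter family, at 1.90, 1.24 and 0.87 and 0.66, 0.74 and 0.67 TPM (log2 difference -0.97, SE 0.33), and Slc30a5, which loads zinc into the secretory pathway, at 25.9 to 27.9 and 22.9 to 24.9 TPM (log2 difference -0.19, SE 0.06). Both had no overlap.

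Among 59 mitochondrial carriers, 2 had an unadjusted p under 0.05, a share near the 3.12% of all genes. Slc25a42, the importer of coenzyme A, was at 21.1, 20.5 and 20.5 TPM in stress-low and 24.0, 26.1 and 25.9 TPM in stress-high animals. These values were tight within each group and did not overlap, and the log2 difference of 0.30 (SE 0.07) had the fourth smallest p of all genes tested (unadjusted p = 0.00091). Slc25a23, a calcium-regulated carrier of ATP, was at 310.4 to 328 and 347 to 363 TPM (log2 difference 0.15). Of 45 amino acid and monoamine transporters, 2 had an unadjusted p under 0.05 (against 3.12% of all genes), both lower in stress-high animals. They were Slc17a5, the lysosomal sialic acid exporter (log2 difference -0.27, SE 0.09), and Slc7a11, the cystine-glutamate exchanger of astrocytes (log2 difference -0.18, SE 0.09), the second with overlapping groups.

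Ion channels and transmitter receptors differed by single members. Of 44 tested voltage-gated potassium channels 25 were lower in stress-high animals. An unadjusted p under 0.05 was found for 3, all higher (against 1.73% of all genes higher and 1.40% lower). Without 1 animal, Kcna5 and Kcng2 stayed under 0.05 in 4 of 6 edgeR fits and Kcnf1 in 3. Kcna5, a delayed rectifier, was at 1.14, 0.61 and 0.86 TPM in stress-low and 2.29, 1.31 and 1.41 TPM in stress-high animals (log2 difference 0.93, SE 0.32). Kcng2 and Kcnf1 encode electrically silent subunits that modify Kcnb channels, and they were at 32.0 to 34.5 against 37.6 to 42.6 TPM and 2.18 to 4.04 against 4.28 to 5.66 TPM. Kcnj14, an inward rectifier, was at 4.90, 4.85 and 4.79 TPM and 6.83, 5.64 and 5.95 TPM (log2 difference 0.35, SE 0.12), with the 3 stress-low values close together and under all others. For sodium channels 11 of 15 tested genes were lower, and Scn1a, the channel of fast-spiking interneurons, had a log2 difference of -0.17 (SE 0.07) with overlapping groups. Trpm2, an oxidant-gated cation channel, was at 4.93 to 5.53 and 5.73 to 6.70 TPM. The calcium pump gene Atp2a3 had a log2 difference of -1.49, but it rested on stress-low animal 22, at 6.79 TPM against 0.62 to 1.48 TPM in the other 5, and was 0.44 without that animal.

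Glutamate receptors had no member with an unadjusted p under 0.05 among 11 AMPA, kainate and delta subunits, 7 NMDA subunits and 8 metabotropic receptors. With a share of 3.12% over all genes, lists this short can hold none without differing from that share. The NMDA subunit Grin1 was at 294 to 342 TPM in stress-low and 301 to 356 TPM in stress-high animals. Among 15 GABA-A subunits 10 were lower in stress-high animals. Gabra5, the subunit of tonic inhibition in hippocampus, was at 126, 121 and 111 TPM and 95.2, 106 and 113 TPM, with a log2 difference of -0.19 (SE 0.07, unadjusted p = 0.0141) and an overlap of stress-low animal 34 with stress-high animal 20. The nicotinic subunit Chrna2, a marker of hippocampal interneurons that project to distal dendrites, was at 3.62 to 4.86 and 4.93 to 6.03 TPM (log2 difference 0.41, SE 0.18). Lamp5, a membrane protein of neurogliaform interneurons, was at 71.3, 70.4 and 94.5 TPM in stress-low and 56.9, 66.8 and 64.2 TPM in stress-high animals (log2 difference -0.32, SE 0.12), while the whole list of GABA interneuron markers summed to 1202 to 1267 and 1017 to 1351 TPM. Of 23 serotonin, dopamine, adrenergic and muscarinic receptors none had an unadjusted p under 0.05 (against 3.12% of all genes).

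Vesicle and fusion genes were close to even, while more postsynaptic scaffolds were above 0 and more adhesion genes below 0, by small amounts. Of 49 vesicle and fusion genes 23 were above 0, and 1 had an unadjusted p under 0.05 (against 3.12% of all genes). It was Erc1, an active zone scaffold (log2 difference 0.22, SE 0.09), whose sign turned when the animal number was a covariate. Of 32 postsynaptic scaffolds 23 were above 0 with a median log2 difference of 0.041. Of 38 synaptic adhesion genes 24 were below 0 with a median of -0.033, and none had an unadjusted p under 0.05. Lingo2, a leucine-rich repeat protein of neurons listed with the Nogo receptors, was at 20.3, 21.9 and 18.7 TPM in stress-low and 16.8, 15.8 and 17.3 TPM in stress-high animals, with no overlap (log2 difference -0.29, SE 0.08, unadjusted p = 0.00421).

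Most adhesion molecules named here were lower in stress-high animals. The 3 of 24 cadherins with an unadjusted p under 0.05 (against 3.12% of all genes) were all lower in stress-high animals, although 14 of the 24 were above 0. Without 1 animal the number was 1 to 3. Cdh9 and Cdh20 stayed under 0.05 in 4 of 6 such edgeR fits and Cdh23 in 3. Cdh9, a cadherin of DG to CA3 synapses, was at 55.2, 55.3 and 58.9 TPM in stress-low and 37.3, 45.9 and 52.9 TPM in stress-high animals (log2 difference -0.31, SE 0.13). Cdh20 was at 11.6 to 13.5 and 9.27 to 11.4 TPM and Cdh23, a long cadherin of tip links, at 1.26 to 1.67 and 0.97 to 1.24 TPM. None of these 3 overlapped. Pcdh15, the tip-link partner of Cdh23, was also lower, with 7.39, 7.24 and 6.17 TPM and 3.44, 5.75 and 6.15 TPM (log2 difference -0.52, SE 0.17, unadjusted p = 0.00752), and stress-high animal 7 stood lowest. Among 53 protocadherins 30 were below 0. The clustered members Pcdhga5 (log2 difference 0.52) and PCDHA1 (log2 difference -0.65) went in opposite directions, and since clustered protocadherins share exons their values are uncertain.

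In the matrix, the brevican gene Bcan of perineuronal nets was at 127 to 139 TPM in stress-low and 139.5 to 161 TPM in stress-high animals, with no overlap but a log2 difference of 0.15 (SE 0.12, unadjusted p = 0.249). Of 28 perineuronal net and remodeling genes 15 were above 0. Timp1, an inhibitor of metalloproteinases, was at 0.98, 1.27 and 1.88 TPM and 2.82, 2.34 and 2.90 TPM (log2 difference 1.0, SE 0.43), from only 5 to 18 counts. Mmp17, a membrane-bound metalloproteinase, was at 44.4 to 48.5 and 49.7 to 54.8 TPM (log2 difference 0.16), and Spock3, a testican proteoglycan, at 57.4 to 60.7 and 47.7 to 55.6 TPM (log2 difference -0.16). Lama2, a laminin of basement membranes, was lower in every stress-high animal, at 1.45, 1.63 and 1.38 TPM and 1.02, 1.02 and 1.26 TPM (log2 difference -0.44, SE 0.14). Dcn, the small proteoglycan decorin, was higher, at 1.73, 1.32 and 1.28 TPM and 2.62, 3.45 and 1.97 TPM (log2 difference 0.89, SE 0.28). Dcn also marks fibroblasts, and of 17 tested leptomeningeal and fibroblast genes 6 were above 0, with summed values of 150.4 to 217.3 TPM in stress-low and 151.3 to 202.0 TPM in stress-high animals. Enzymes that build sugar chains were above 0 for 64 of 108, with Ext1, a heparan sulfate polymerase, at 8.80 to 9.90 and 10.9 to 12.3 TPM, Mgat5b, a brain N-acetylglucosaminyltransferase, with a log2 difference of 0.24, and Galnt18, which starts mucin-type chains, lower at 48.0 to 52.4 and 41.0 to 45.7 TPM.

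**Figure D3:**
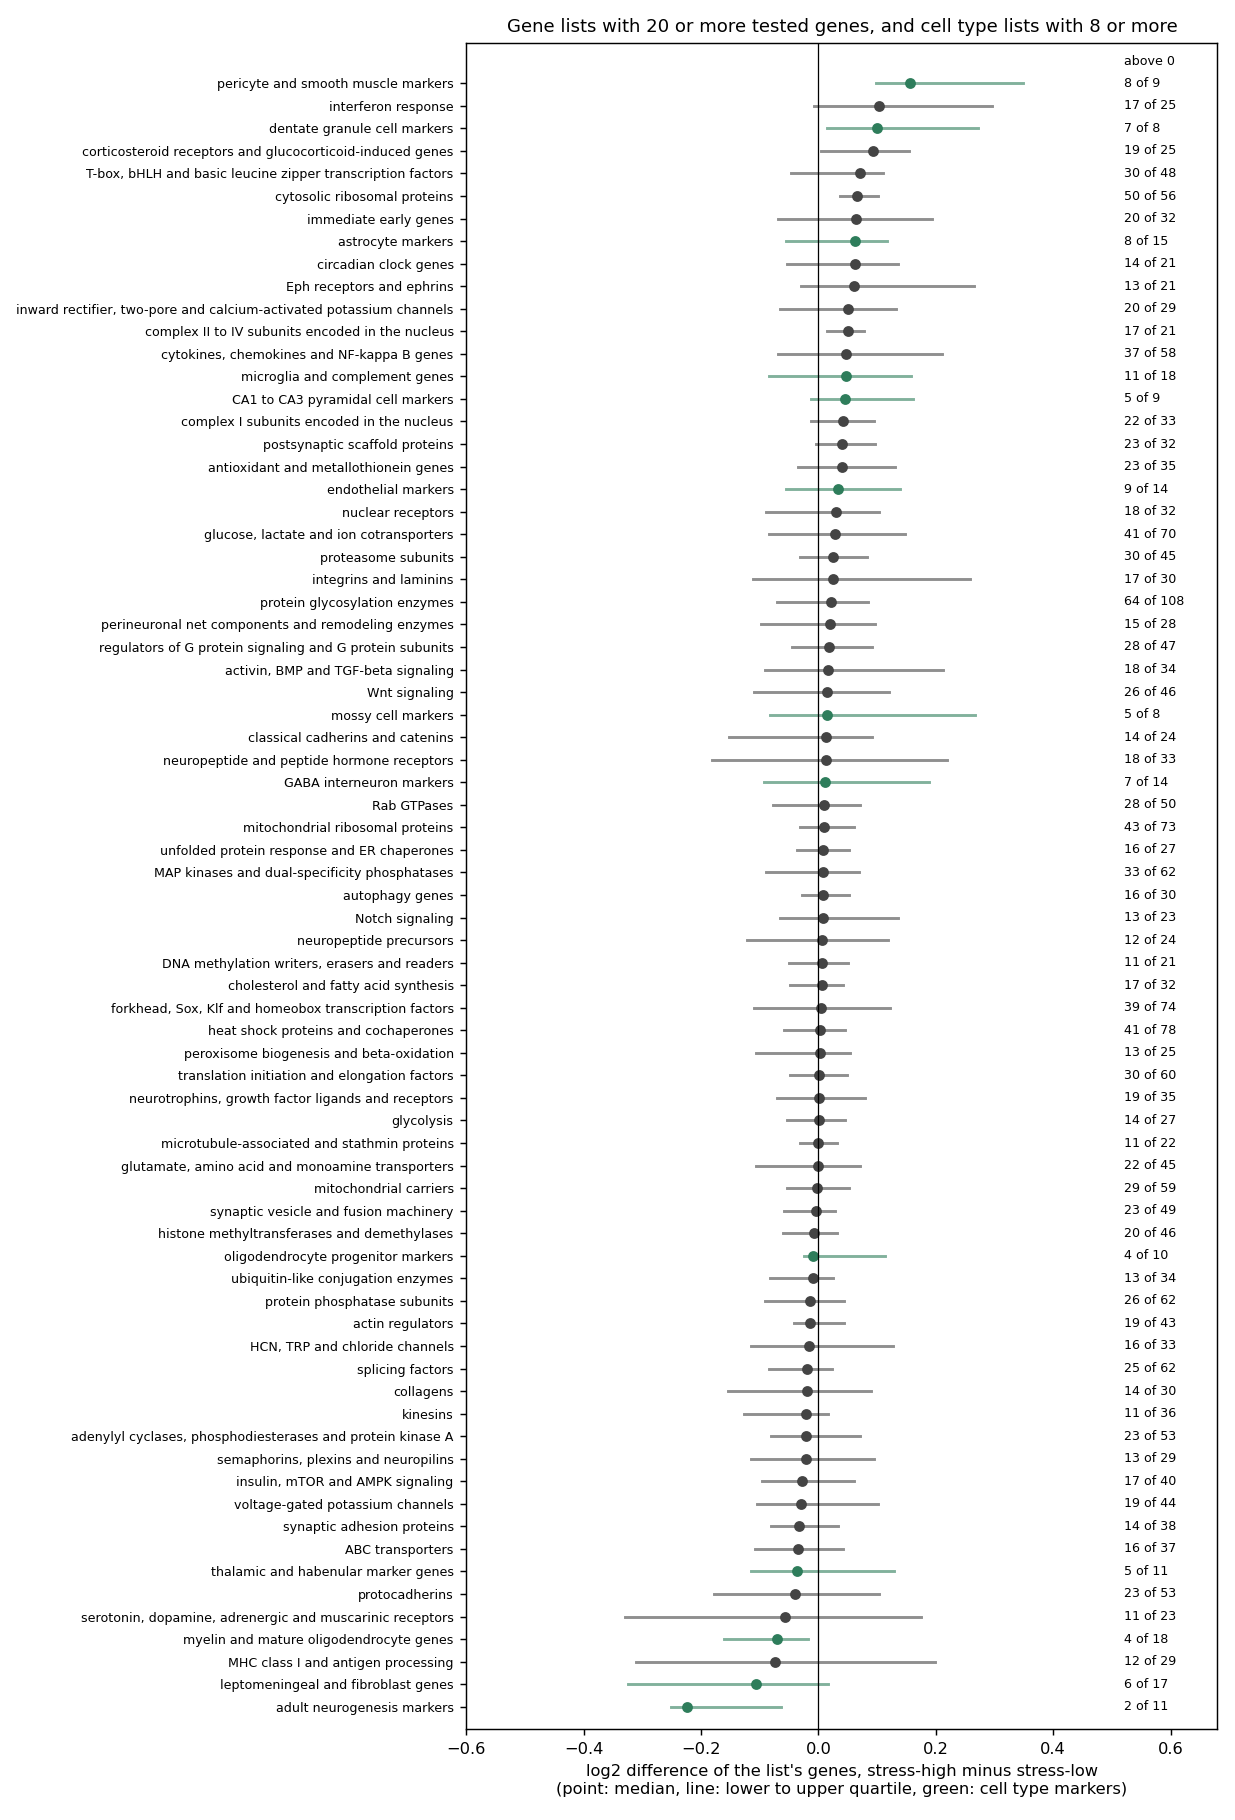
Median (point) and quartiles (line) of the log2 difference, stress-high minus stress-low, over the tested genes of each list with 20 or more tested genes and of each cell type list with 8 or more (green), ordered by the median, with the number of genes above 0 at the right. Adult neurogenesis markers lie lowest at -0.22 with 2 of 11 above 0, pericyte markers highest at 0.16 with 8 of 9 (-0.32 with the animal number as a covariate), and cytosolic ribosomal proteins have 50 of 56 above 0 at a median of 0.066.

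Cytosolic ribosomal protein genes leaned to stress-high animals by a small amount in nearly every member. Of 56 tested genes 50 were above 0, against 50.0% of all genes, with a median log2 difference of 0.066 and quartiles of 0.037 and 0.10. Without 1 animal the number was 44 to 52, and without each in turn the median stayed at 0.041 to 0.10. The SD of the list's level between animals of a group was 0.060, close to the size of the median. Summed TPM overlapped, at 64380 to 69820 in stress-low and 69030 to 71550 in stress-high animals, with 64590 to 75640 in controls. All 56 genes were measured in the same 6 animals, so they are not independent results. Only Rpl30, a protein of the large subunit, had an unadjusted p under 0.05, with 569, 716 and 567 TPM in stress-low and 824, 753 and 881 TPM in stress-high animals (log2 difference 0.43, SE 0.16). The 28 ribosomal names that are held by several identifiers were left out, since their reads may be split between copies. On counts thinned to 1 depth 49 of 54 were above 0 with a median of 0.065, and with the animal number as a covariate 52 of 56 were.

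Respiratory chain genes from the nucleus showed a lean of the same kind that depended on the animals used. Complex II to IV genes were above 0 for 17 of 21 and complex I genes for 22 of 33, with medians of 0.050 and 0.043, but without 1 animal the numbers ran from 10 to 18 and from 14 to 28. Cox7b, a subunit of cytochrome c oxidase, was at 689.6, 567 and 669.9 TPM in stress-low and 709, 883 and 737 TPM in stress-high animals (log2 difference 0.30, SE 0.10, unadjusted p = 0.0112). Of the 12 genes of the mitochondrial genome, 7 were above 0, and this number ran from 0 to 11 when 1 animal was left out. Mitochondrial ribosomal proteins (43 of 73), ATP synthase (11 of 18), glycolysis (14 of 27) and the tricarboxylic acid cycle (12 of 19) had medians between 0.00040 and 0.026. Kinesins, the motors of axonal transport, were below 0 for 25 of 36, splicing factors for 37 of 62 and prefoldin and TRiC chaperonin subunits for 11 of 15, with medians of -0.021, -0.019 and -0.020.

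In the nucleus, Tbx19 had the second smallest p of all genes tested. This T-box factor is best known from pituitary cells, where it drives the precursor of ACTH. It was at 0.77, 1.70 and 1.92 TPM in stress-low and 3.96, 3.72 and 2.80 TPM in stress-high animals, with no overlap, and controls (2.69 to 3.51 TPM) lay above every stress-low animal. The log2 difference was 1.28 (SE 0.27, unadjusted p = 0.000346). Atf5, a stress-response leucine zipper factor, overlapped (56.8 to 65.9 and 65.5 to 76.8 TPM), and T-box, helix-loop-helix and leucine zipper factors together were above 0 for 30 of 48. Sp8, a zinc-finger factor of interneuron development, was at 0.41 to 0.75 and 0.84 to 1.3 TPM with at most 21 counts. Among enzymes of chromatin, Hdac5, a deacetylase that shuttles out of the nucleus with neuronal activity, was at 44.7, 42.1 and 41.5 TPM and 52.8, 50.7 and 48.2 TPM (log2 difference 0.25, SE 0.07, unadjusted p = 0.00302), with no overlap, while 8 of 17 tested deacetylases and sirtuins were above 0. Suv39h2, a histone H3 lysine methyltransferase of heterochromatin, was lower, at 5.83, 5.36 and 5.14 TPM and 4.32, 4.33 and 3.34 TPM (log2 difference -0.44, SE 0.14). Setd3, a methyltransferase that acts on actin, was at 121 to 129 and 110.1 to 116 TPM, and MBD3, a subunit of the NuRD repressor complex, at 105 to 109 and 112 to 122 TPM. Ppard, a lipid-sensing nuclear receptor, overlapped between the groups (log2 difference 0.22).

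Signaling and immune genes were a mixture. Of 58 cytokine, chemokine and NF-kappa B genes 37 were above 0, and the 3 with an unadjusted p under 0.05, a share near the 3.12% of all genes, were higher in stress-high animals. Il16, whose precursor is a neuronal PDZ protein, was at 27.8, 29.4 and 29.8 TPM in stress-low and 33.0, 33.2 and 36.2 TPM in stress-high animals (log2 difference 0.24, SE 0.07, unadjusted p = 0.00348). Tnfrsf25, a death-domain receptor, was at 9.45 to 10.9 and 12.2 to 15.5 TPM, and Ikbkg, the regulatory subunit of the NF-kappa B kinase, overlapped (3.21 to 4.53 and 4.47 to 5.71 TPM). Interferon response genes were above 0 for 17 of 25, with Irf9, the DNA-binding partner of the STAT factors, at 8.33 to 12.2 and 11.8 to 15.5 TPM. Microglial markers were near even, with 11 of 18 above 0, 0 with an unadjusted p under 0.05 and summed values of 310.3 to 331.9 and 314.3 to 367.8 TPM. Mfge8, a secreted bridge between dying membranes and phagocytes made by astrocytes, was at 80.6, 83.8 and 75.4 TPM in stress-low and 98.2, 106 and 102 TPM in stress-high animals (log2 difference 0.36, SE 0.10), while 8 of 15 astrocyte markers were above 0 and their sums were 2867 to 3248 and 3115 to 3186 TPM. C1ql1, a secreted complement-like protein of oligodendrocyte progenitors and some neurons, was at 16.6 to 20.1 and 22.9 to 26.8 TPM (log2 difference 0.40). Its list, of oligodendrocyte progenitor markers, had a sum that did not overlap but only 4 of 10 tested genes above 0.

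Intracellular signaling gave few members. Adcy8, a calcium-stimulated adenylyl cyclase, was at 9.23, 10.3 and 6.44 TPM in stress-low and 6.19, 5.80 and 6.34 TPM in stress-high animals (log2 difference -0.51, SE 0.21), with stress-low animal 34 next to the stress-high values. Akap2, a protein kinase A anchor, had a log2 difference of 0.18 with overlapping groups. Among MAP kinase genes, the scaffold Ksr1 was at 34.1 to 36.7 and 40.2 to 42.6 TPM (log2 difference 0.24) and the phosphatase Dusp14 at 42.6 to 55.9 and 53.4 to 68.1 TPM, overlapping. Ppp1r14c, an inhibitor of protein phosphatase 1, had a log2 difference of -0.23 (SE 0.10) with overlapping groups. Its stress-high animal 20, at 19.2 TPM, lay above every stress-low animal (18.3 to 18.9 TPM). Of the genes for tubulin and its partners, Tubg2, a gamma tubulin, was higher (18.6 to 22.4 and 23.3 to 25.8 TPM) and Clasp2, a plus-end tracking protein, lower (151 to 169 and 139 to 148 TPM) in every stress-high animal. Camk2d, a calcium-calmodulin kinase subunit, was at 5.88 to 6.99 and 5.09 to 5.74 TPM (log2 difference -0.27), and Eif2b2, a subunit of the exchange factor for translation start, at 45.9 to 51.8 and 52.1 to 59.1 TPM (log2 difference 0.17).

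**Figure D4:**
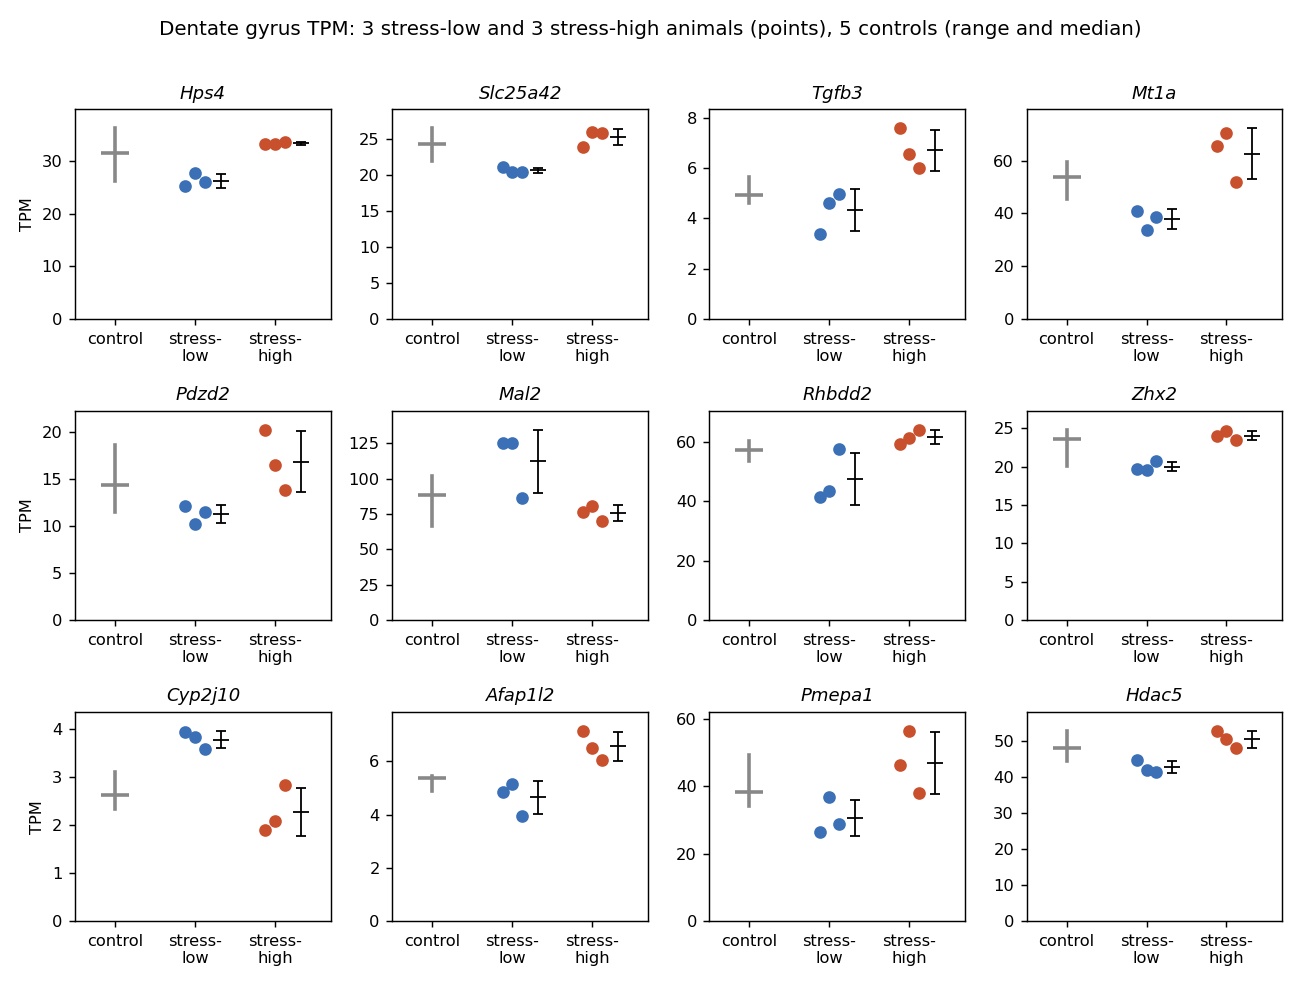
TPM (y axis, from 0) of the 12 genes with the smallest p among those named by rank, in DG controls (gray, range and median of 5 animals), stress-low animals (blue) and stress-high animals (red), with the mean and SD of each stress group in black. No stress group overlaps the other in any panel, as the rule for these genes required, and only Mal2 and Cyp2j10 have the stress-high animals below.

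Further genes were named by rank alone, from those with non-overlapping groups that the study's own plots do not show, so their separation follows from the choice. Pdzd2, a protein with several PDZ domains listed with the granule cell markers, was at 12.1, 10.2 and 11.5 TPM in stress-low and 20.2, 16.4 and 13.8 TPM in stress-high animals (log2 difference 0.59, SE 0.15, unadjusted p = 0.0019). It was the 1 granule cell marker of 8 with an unadjusted p under 0.05 (against 3.12% of all genes). Of the 8, 7 were above 0, and the list summed to 945.3 to 1056 and 991.4 to 1167 TPM. Hps4, a subunit of the exchange factor that builds lysosome-related organelles, was at 25.2, 27.8 and 26.0 TPM and 33.3, 33.4 and 33.7 TPM (log2 difference 0.35, SE 0.08, unadjusted p = 0.00083). Its 3 stress-high values were nearly equal, and controls spanned 26.3 to 36.3 TPM. Mal2, a proteolipid of vesicle traffic, was the most abundant gene that was lower in stress-high animals by this rule, at 125, 125 and 86.5 TPM and 76.6, 80.4 and 69.9 TPM (log2 difference -0.56, SE 0.15), and stress-low animals 22 and 33 stood above every control. Cyp2j10, a cytochrome P450 of the family that makes epoxides of arachidonic acid, was at 3.92, 3.82 and 3.57 TPM and 1.90, 2.08 and 2.83 TPM (log2 difference -0.72, SE 0.19). Rhbdd2, a rhomboid-like membrane protein, was at 41.3 to 57.6 and 59.3 to 64.1 TPM, Zhx2, a zinc-finger and homeobox repressor, at 19.6 to 20.7 and 23.5 to 24.7 TPM, and Afap1l2, an adaptor that binds actin filaments and Src, at 3.95 to 5.14 and 6.04 to 7.13 TPM. In Afap1l2 all stress-high animals lay above the highest control, at 5.43 TPM.

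The same contrast in the basolateral amygdala (BLA), another region of the stress circuit, was fitted with the DG in 1 model to ask whether the differences varied by region. The BLA stress-low group held animal 30 in place of animal 33, and the other 5 animals were shared. In the BLA 0 of 15230 genes passed an adjusted p of 0.05 in edgeR (0%) and 302 had an unadjusted p under 0.05 (1.98%). The difference between regions passed an adjusted p of 0.05 for 0 of 15453 genes (0%), and 309 had an unadjusted p under 0.05 (2.00%). That fit did not use the fact that 1 animal gave both regions, and with the animal as a block 0 passed, 538 had an unadjusted p under 0.05 and Pdyn, in place of Cartpt, had the smallest p. Cartpt had a log2 difference of 2.25 in the DG and -0.92 (SE 0.57) in the BLA, and Rxfp1 of -0.92 and 0.25 (SE 0.18). Their region differences of 3.19 and -1.15 had unadjusted p-values of 0.000258 and 0.000978 and adjusted p-values of 0.9999. Inhbb had nearly the same value in both regions, 0.62 and 0.65, as did Dbp, 0.21 and 0.23. Tgfb3 had 0.65 in the DG and 0.03 in the BLA, and Mt1a 0.75 and 0.34. The genes were chosen for their DG values, so smaller BLA values follow in part from the choice.

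**Figure D5:**
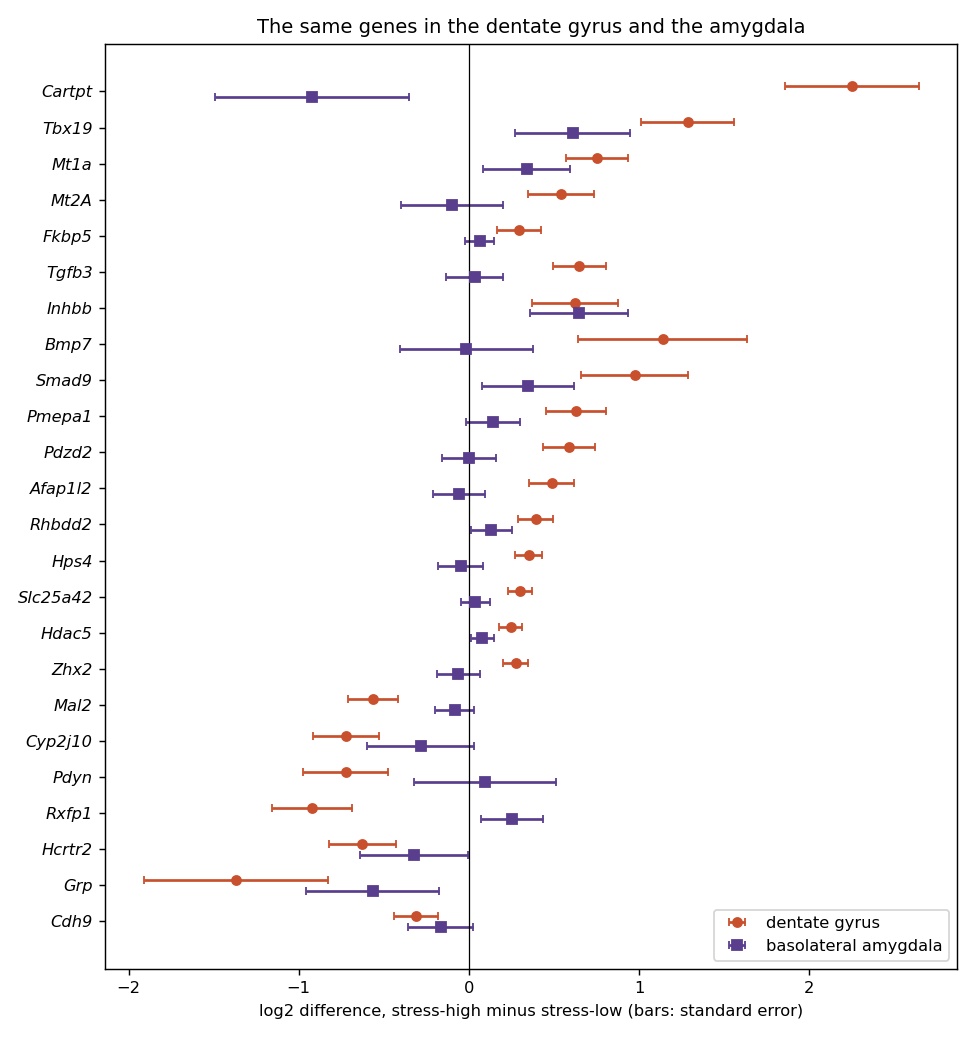
Log2 difference of stress-high over stress-low animals (x axis, bars are standard errors) for 24 named genes (y axis) in the DG (circles) and the BLA (squares). Cartpt lies at 2.25 in the DG and -0.92 in the BLA, Inhbb at 0.62 and 0.65, and most other BLA points lie nearer to 0 than the DG points of the same genes.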

How the data were processed

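The study sequenced poly-A RNA from punches of the DG and BLA of single rats. The authors aligned the reads with STAR 2.6.0a and quantified them with RSEM 1.3.1 on the Rn5 assembly. The deposited tables hold RSEM's expected counts for each gene, and the authors also deposited TPM, which is scaled by gene length and library. RSEM divides reads that fit several genes. Of all values, zeros included, 5.667% to 6.385% were not whole in DG libraries and 18.805% to 26.862% in BLA libraries. Of 26312 identifiers in the DG table, 5742 had no name, and names held by 2 or more identifiers (600, case ignored) stayed out of the counts and medians of gene lists but are in their summed TPM.

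Samples were grouped by their GEO labels. Expected counts were rounded, filtered with filterByExpr (minimum count 10) and scaled with TMM, and 3 DG group means were fitted over 11 libraries with edgeR 4.0.16 in R 4.3.3, by its quasi-likelihood test with Benjamini-Hochberg adjustment. Control animal 35 was left out for its first principal component. The study's own test was not run here, and edgeR took its place. The difference between regions was an interaction term over 23 libraries, without a term for the animal that gave both regions, which was an alternative. TPM values are given per animal and were not used in that test. No 2 libraries of the same DG stress group agreed within sampling noise. Total counts per DG library were 11656439 to 19477932, and genes with few counts are given with them. The fit was checked on simulated counts with known changes. Alternatives were DESeq2 1.42.0, limma 3.58.1 on log2(TPM + 1) and log2(TPM + 0.1), other size factors, filters, sample sets and covariates, thinned counts, and leaving out each animal.

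Genes were named by these rules. They are the 12 with the smallest p, non-overlapping TPM, a mean of at least 1 TPM and a name of 1 identifier that the study's plots do not show, up to 2 per list with an unadjusted p under 0.05 and a mean of at least 1 TPM, and the first members of each list. Trhr2, Slc30a5, Slc12a4, Grp, Kcnf1, SRXN1, Cdh20, Galnt18, Ikbkg, Timp1, Bmp7, Fkbp5, Sp8, PCDHA1 and Mt3 were named after their values were seen. The comparison, gene lists and motifs were chosen with earlier results of these data known, so no list is independent support. Lists share some genes. Single values of some genes are not reported here.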

Additional observations from a re-analysis of the deposited data

Results flagged for a closer look

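Of 90 named genes checked in the 5 DG controls, 4 had 1 control animal far from the other 4, by the ratio of its gap to the whole range against Dixon's critical value of 0.71. Chance alone gives about 1 in 20 such groups. Control animal 2 was lowest for Mt2A, at 96.77 TPM against 148.1 to 161.5 TPM in the others (ratio 0.794), so the lowest control lay within the stress-low range of that gene. Control animal 14 was lowest for Mmp17, at 43.19 TPM against 51.0 to 53.19 TPM (ratio 0.781). Control animal 17 was highest for Bmp7, at 2.3 TPM against 0.51 to 0.98 TPM (ratio 0.737). Control animal 32 was highest for Slc30a5, at 25.89 TPM against 22.68 to 23.54 TPM (ratio 0.732). These are control values, and the stress groups of 3 animals are too small for this rule.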

How the results depend on the processing

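No gene passed an adjusted p of 0.05 under any alternative except DESeq2, which called 3 (Cartpt and Tbx19 among them), and leaving out 1 animal gave 0 throughout, for the region difference as well. The count of 440 genes with an unadjusted p under 0.05 was 251 with all 12 DG libraries, 755 with library size as a covariate and 787 with the animal number above 20 as a covariate, and 242, 196 and 141 of the 440 were among these. Without 1 animal they numbered 349 to 681, the highest without stress-high animal 7. Non-overlapping genes, 1223 of those tested, numbered 3191 without stress-high animal 7, 2157 without 19, 2516 without 20, and 2774, 2511 and 2324 without stress-low animals 22, 33 and 34, where fewer values have to be separated. With the replicate block there were 0 genes at an adjusted p under 0.05 and 359 at an unadjusted one, of which 244 were among the 440. Libraries with the same replicate number correlated at -0.185 to 0.111 over 14 pairs and others at -0.103 to 0.224 over 25. No pairing by number was seen in these values, but groups this small cannot exclude one. Of 1617 alternatives for 90 named genes 1613 kept the direction, which their selection favors, but 46 of the 90 genes had an unadjusted p under 0.05 with library size and 34 with the animal number, where Klf4 went from 0.81 to 0.071, Slc2a1 from 0.31 to 0.071, Mfge8 from 0.36 to 0.12 and Timp1 from 1.0 to 0.12. Reversed were Atp2a3, at 0.44 without stress-low animal 22, and, with the animal-number covariate, Erc1 (-0.0097), Ksr1 (-0.0018) and Mt3 (-0.058). The cause was not tested. Library size and animal number do not overlap between the stress groups, so they and the behavior score cannot be told apart. The animal-number term was the same as the group among stressed animals, so its value came from the controls alone. The median standard error of a log2 difference was 0.118, which limits what 3 animals a group can show.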
